A study of Mus musculus with 24 samples.

Results

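The genes described here encode the nuclear subunits of the mitochondrial respiratory chain and of ATP synthase, measured in cultured mouse muscle cells. Members were all genes with a probe set that lists 1 gene whose symbol starts with Nduf (series a, b, c, s or v), Sdh (a to d), Uqcr, Cox4 to Cox8 or Atp5 and follows the pattern of a subunit name. This gave 80 of the 19938 genes tested. Of these, 33 belong to complex I, 4 to complex II, 8 to complex III, 18 to complex IV and 17 to complex V. Ndufa4, which is named for complex I but is now placed in complex IV, was counted in complex IV. Where a gene had several probe sets, the one with the highest mean over all arrays was used. The subunits encoded in mitochondrial DNA were not analysed here. Of the 80 members, 78 lay above the median of the whole table (7.42 log2 units) in at least 1 group, and the exceptions were Cox4i2 and Cox7b2.

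The study asked whether the kinase MuSK shapes the response of muscle cells to the growth factor BMP4, at either stage of differentiation. It used 2 immortalised lines, MuSK-/- and wild-type H-2Kb-tsA58, each as myotubes and as myoblasts, and each either given BMP4 (25 ng/ml for 8 h) or left untreated, with 3 arrays in each of the 8 groups. H-2Kb-tsA58 cells carry a temperature-sensitive large T antigen under an interferon-inducible promoter. Myotubes had spent 3 days at 37 °C in horse serum, and myoblasts were growing at 33 °C with fetal serum and interferon-γ. Before BMP4, treated myoblasts spent 4 h without serum, and for untreated myoblasts the labels do not say. Treated myotubes were not deprived. Each genotype was 1 line, so genotype and line cannot be told apart. Temperature, serum, interferon and stage also changed together. The samples of a group are labelled as biological replicates, but nothing says that they came from separate cultures or passages, so the p-values given here rest on a spread that may be technical.

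The respiratory chain passes electrons from NADH through complex I, and from succinate through complex II, to ubiquinone, then through complex III and cytochrome c to complex IV, which reduces oxygen. Complexes I, III and IV pump protons, and complex V uses the proton gradient to make ATP. Several subunits of complex IV exist as tissue isoforms. In rodents Cox6a2, Cox7a1 and Cox8b are the forms of heart and skeletal muscle, and Cox6a1, Cox7a2 and Cox8a are the forms found in most other tissues. Cox4i2 is known from lung and from the response to low oxygen, and Cox6b2, Cox7b2 and Cox8c are known from testis. Differentiating muscle is known to build up mitochondria, with the coactivator Ppargc1a among the regulators.

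Values are log2 signals, and the arrays had medians from 7.38 to 7.50. The median SD within a group was 0.07 log2 units for the members and 0.09 for all genes. Tests are from limma over all arrays, and a gene was called at a Benjamini-Hochberg adjusted p under 0.05 over all 19938 genes. Musk itself gave 11.17, 11.24 and 11.24 in untreated MuSK-null myotubes against 12.72, 12.69 and 12.76 in wild-type myotubes, and 10.93, 10.69 and 10.94 in MuSK-null myoblasts against 11.63, 11.50 and 11.58 in wild-type myoblasts. It was thus lower in the null line but not absent, and which exons its probes cover is not given. The mean level of 10 markers of differentiated skeletal muscle was 12.97 to 12.99 in MuSK-null myotubes and 13.18 to 13.24 in wild-type myotubes, and 8.85 to 9.00 in MuSK-null myoblasts and 11.36 to 11.49 in wild-type myoblasts. All 10 were lower in MuSK-null than in wild-type myoblasts, so the wild-type cultures labelled myoblasts held more RNA of differentiated muscle. The mean of 8 fibroblast markers ran higher in the null line, at 10.66 to 10.81 in MuSK-null and 9.35 to 9.50 in wild-type myotubes, and 9.66 to 9.68 in MuSK-null and 8.78 to 8.81 in wild-type myoblasts. In such bulk samples fewer cells of a type and less RNA per cell cannot be told apart.

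In 4 myoblast arrays, 1 from each myoblast group, the signals deviated together from their groups. They were replicate 2 of MuSK-null myoblasts with and without BMP4, replicate 3 of wild-type myoblasts with BMP4 and replicate 2 of those without. Over the members their deviations correlated pairwise at 0.70 to 0.87, and their member signals lay 0.04 to 0.10 log2 units (medians) above those of their group mates. Where leaving these 4 arrays out changed a call given below, the value without them is given for members picked by the naming rule. That rule is stated with the processing. For other genes the calls without these arrays are mostly not given.

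Most chain subunit genes were higher in myotubes than in myoblasts, in both lines. In the untreated MuSK-null line 70 members were higher and 1 lower, and in the untreated wild-type line 63 were higher and 3 lower. Among all genes 41.6% were called in the MuSK-null comparison (18.2% higher, 23.4% lower) and 45% in the wild-type comparison (20.3% higher, 24.7% lower). The median member change was 0.52 log2 units in the null line, against -0.01 for all genes, and 0.39 in wild type, against -0.05 for all genes. The lines share no array, and 63 members were called in the same direction in both (62 higher, 1 lower), which is 88.7% of the null calls and 95.5% of the wild-type calls. With most members called in each line, much of this overlap follows from the counts alone, and the overlap over all genes was not counted. Without the 4 arrays that deviated together, 73 members were higher and 1 lower in the null line, and 72 were higher and 1 lower in wild type. The 15 cell cycle genes measured all fell in myotubes in both lines, with medians of -1.24 in the null line and -2.04 in wild type, and the 10 markers of differentiated muscle all rose, with medians of 4.10 in the null line and 1.78 in wild type. Their part in the result was not tested.

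**Figure D1:**
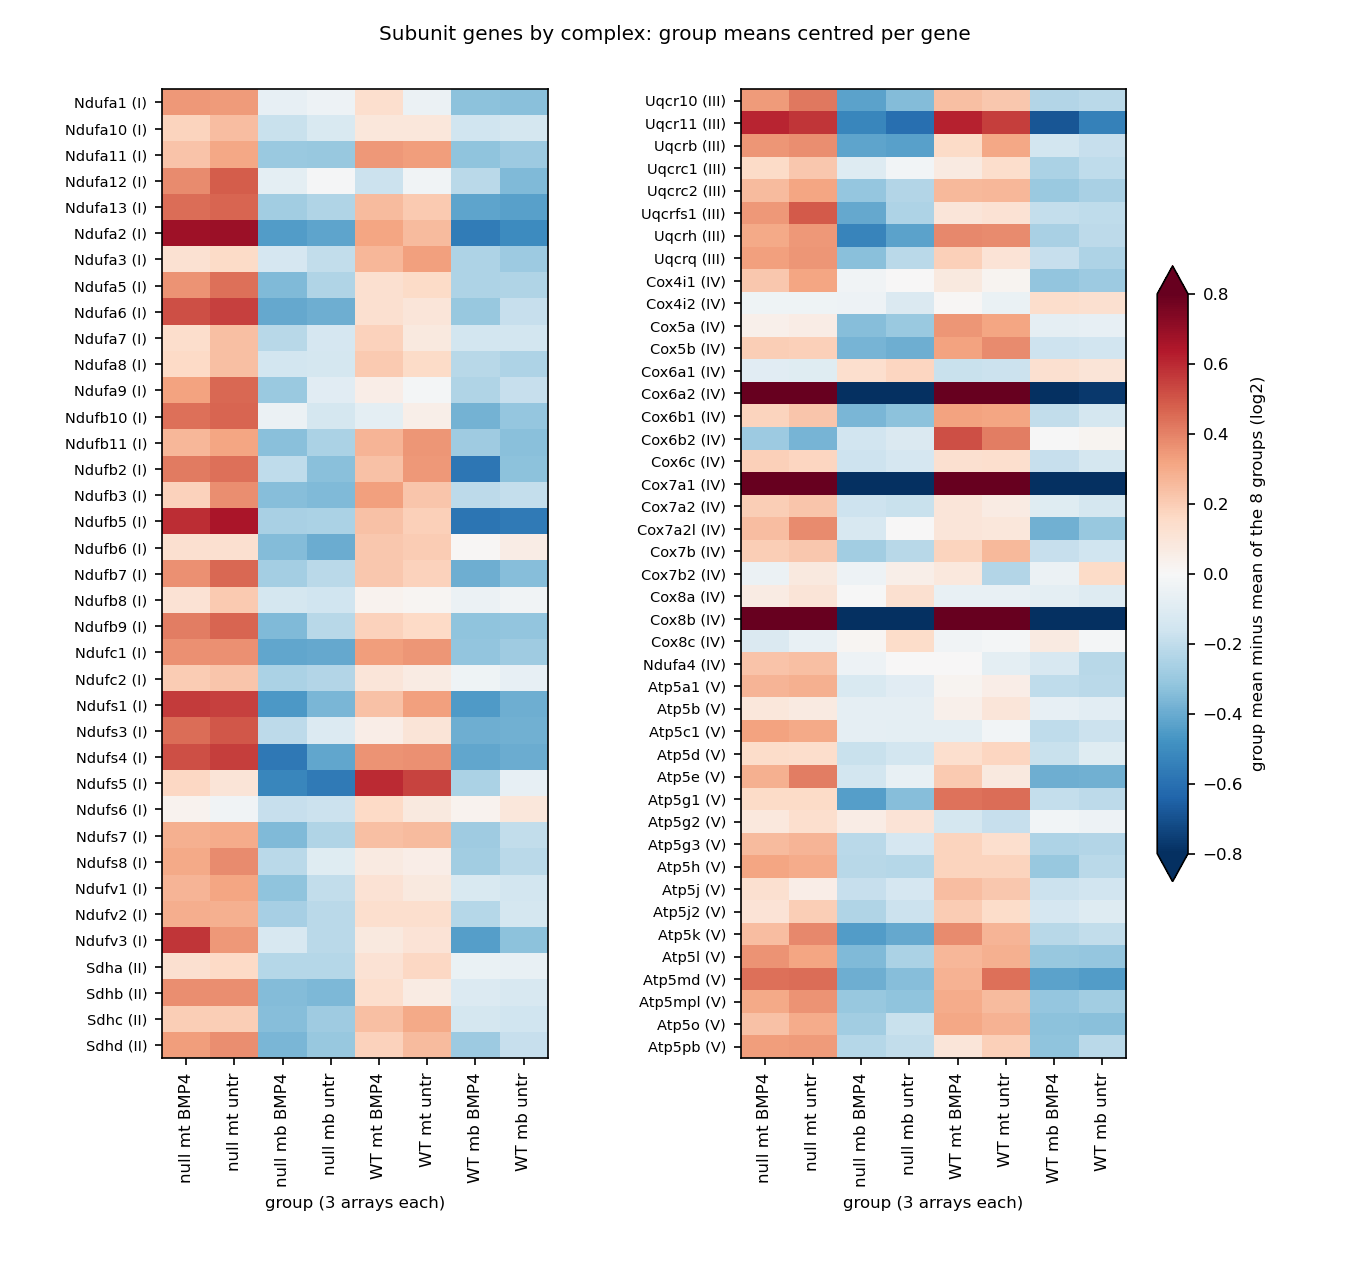
Mean log2 signal of each of the 80 members in the 8 groups, centred on the member's mean over the groups; red is above and blue below that mean, with the scale capped at 0.8 (mt, myotubes; mb, myoblasts; untr, untreated). The myotube columns are mostly red and the myoblast columns mostly blue in both lines, while Cox6a1 runs the other way and Cox6a2, Cox7a1 and Cox8b go past the end of the scale.

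The largest changes in myotubes were those of the muscle isoforms of complex IV. Cox8b, a small subunit of the muscle enzyme, lies at chr7:140898942-140900446 (GRCm38.p6). Its signal was 12.78, 12.78 and 12.55 in MuSK-null myotubes against 8.04, 8.02 and 8.09 in MuSK-null myoblasts, and 13.06, 13.20 and 13.06 in wild-type myotubes against 9.68, 9.36 and 9.55 in wild-type myoblasts. All myotube arrays lay far above all myoblast arrays, and among myoblasts the wild-type arrays lay above the null arrays without overlap. Cox8b was 25.2-fold higher in MuSK-null myotubes (log2 change 4.66, SE 0.11, adjusted p = 7.74e-20) and 11.97-fold higher in wild-type myotubes (3.58, SE 0.11, adjusted p = 2.43e-17). Cox6a2, the muscle form of subunit 6a (chr7:128205435-128206366), gave 11.94, 11.88 and 11.85 in MuSK-null myotubes against 7.90, 8.18 and 8.15 in MuSK-null myoblasts, and 12.14, 12.11 and 12.16 in wild-type myotubes against 9.51, 9.59 and 9.58 in wild-type myoblasts. It stood in the same order as Cox8b, and no 2 of these groups overlapped. The change of Cox6a2 was 14.04-fold in the null line (3.81, SE 0.07, adjusted p = 5.37e-22) and 5.96-fold in wild type (2.58, SE 0.07, adjusted p = 2.22e-18). Cox7a1, the muscle form of subunit 7a (chr7:30184171-30186030), gave 10.07, 9.95 and 9.85 in MuSK-null myotubes against 7.27, 7.27 and 7.41 in MuSK-null myoblasts, and 11.03, 10.90 and 10.94 in wild-type myotubes against 7.65, 7.82 and 7.59 in wild-type myoblasts. Here the wild-type myotubes stood clear above the null myotubes. All MuSK-null myoblast arrays lay below the median of the table, and the files give no detection limit, so whether low signal compresses the Cox7a1 differences that use these arrays was not tested. Cox7a1 was 6.22-fold higher in MuSK-null myotubes (2.64, SE 0.11, adjusted p = 5.08e-15) and 9.64-fold higher in wild-type myotubes (3.27, SE 0.11, adjusted p = 1.42e-16).

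**Figure D2:**
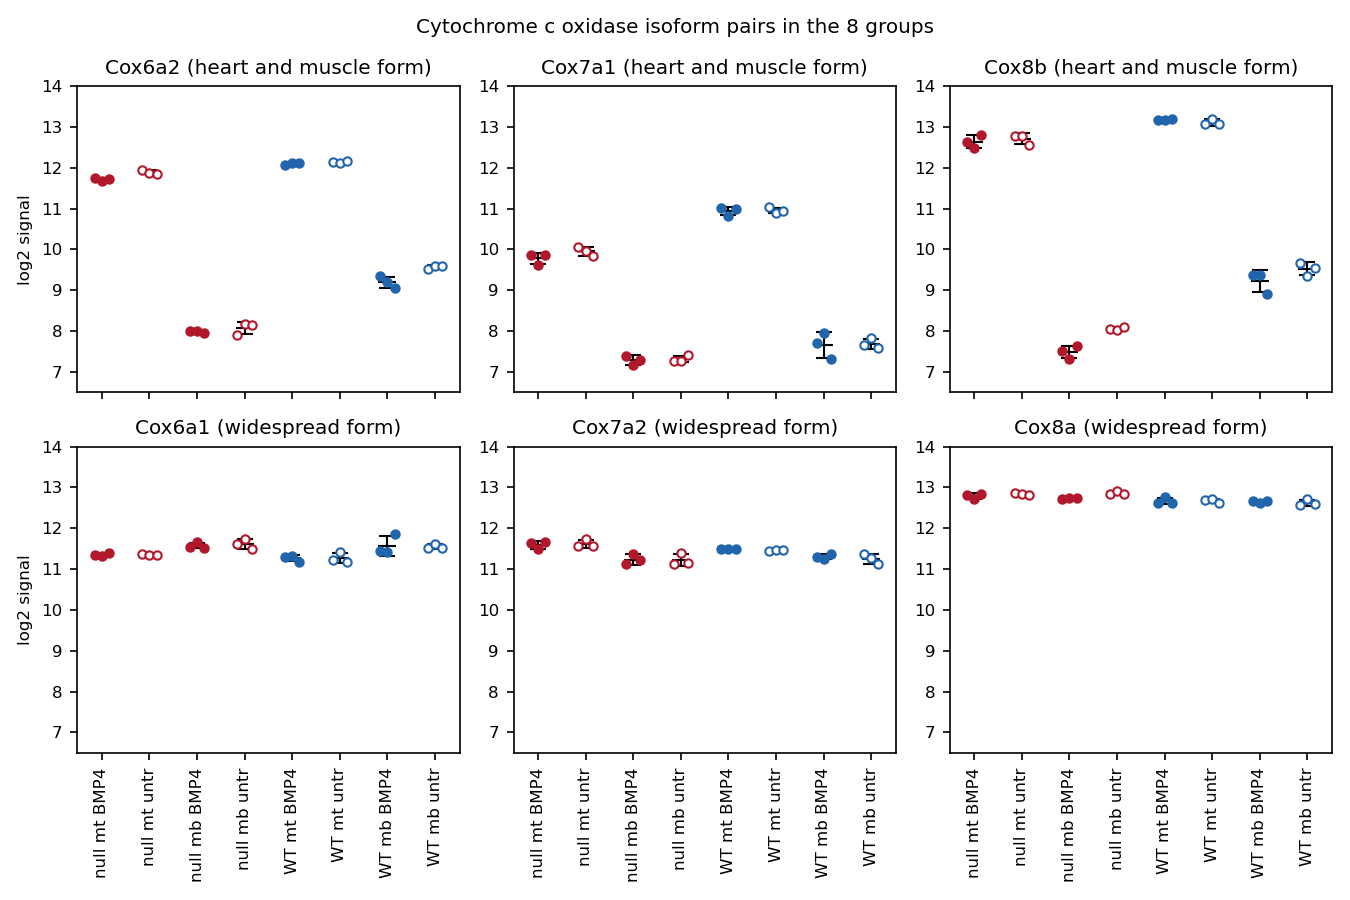
Log2 signal of complex IV isoform genes on each array, by group, with muscle forms and the forms of most other tissues side by side (filled, BMP4; open, untreated; red, MuSK-null; blue, wild type; bars, mean and SD of 3 arrays). Cox6a2, Cox7a1 and Cox8b step up by 2.58 to 4.66 log2 units in untreated myotubes, while Cox6a1, Cox7a2 and Cox8a stay within 0.40 of their myoblast level.

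The counterparts of these isoforms in most other tissues moved little. Cox6a1 (chr5:115345652-115348958) gave 11.36, 11.35 and 11.34 in MuSK-null myotubes against 11.62, 11.75 and 11.48 in MuSK-null myoblasts, and 11.21, 11.41 and 11.18 in wild-type myotubes against 11.51, 11.62 and 11.51 in wild-type myoblasts. Every myotube array lay below every myoblast array of its line, so Cox6a1 ran opposite to Cox6a2. It fell by 0.27 log2 units in each line (SE 0.09 in both, adjusted p = 0.0248 in the null line and 0.0191 in wild type). In wild type this call was lost without myoblast replicate 2 (adjusted p = 0.0753) and without myotube replicate 1 or 3 (0.0696 and 0.0843), and in the null line without myoblast replicate 1 or 2 (0.056 and 0.137) or any 1 myotube array (0.0514 to 0.061). Cox7a2 (chr9:79755241-79771422) rose by 0.40 in MuSK-null myotubes (SE 0.08, adjusted p = 0.000267) and by 0.21 in wild-type myotubes (SE 0.08, adjusted p = 0.0433). The wild-type call was lost without myoblast replicate 2 or 3 or any 1 myotube array (adjusted p = 0.0762 to 0.217). Cox8a (chr19:7215158-7217616) gave 12.85, 12.84 and 12.81 in MuSK-null myotubes against 12.83, 12.91 and 12.83 in MuSK-null myoblasts, and 12.69, 12.71 and 12.62 in wild-type myotubes against 12.58, 12.71 and 12.59 in wild-type myoblasts. The stages overlapped in both lines, and the differences were -0.02 (SE 0.06, adjusted p = 0.832) and 0.05 (SE 0.06, adjusted p = 0.553).

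The promoter letters of members on both sides of this contrast are shown because the muscle forms and their counterparts moved so differently. Each sequence is the 250 bases before the annotated start in RefSeq (GRCm38.p6), read on the gene's strand. The windows are chr7:140900447-140900696 (minus strand) for Cox8b, chr7:30183921-30184170 (plus) for Cox7a1, chr5:115348959-115349208 (minus) for Cox6a1 and chr19:7217617-7217866 (minus) for Cox8a.
Cox8b: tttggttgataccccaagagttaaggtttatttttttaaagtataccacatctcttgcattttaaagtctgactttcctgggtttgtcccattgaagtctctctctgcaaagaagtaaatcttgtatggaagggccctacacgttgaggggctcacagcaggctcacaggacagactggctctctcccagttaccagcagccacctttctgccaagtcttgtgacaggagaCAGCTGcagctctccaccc
Cox7a1: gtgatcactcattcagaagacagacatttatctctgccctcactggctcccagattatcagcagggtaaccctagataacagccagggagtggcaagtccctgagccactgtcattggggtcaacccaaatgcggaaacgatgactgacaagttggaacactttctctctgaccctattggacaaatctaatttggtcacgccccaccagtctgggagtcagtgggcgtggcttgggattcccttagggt
Cox6a1: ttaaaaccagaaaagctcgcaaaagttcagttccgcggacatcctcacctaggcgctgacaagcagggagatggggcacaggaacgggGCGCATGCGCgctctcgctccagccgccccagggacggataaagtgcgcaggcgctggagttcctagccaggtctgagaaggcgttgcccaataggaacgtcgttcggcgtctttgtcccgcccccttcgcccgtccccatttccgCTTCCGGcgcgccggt
Cox8a: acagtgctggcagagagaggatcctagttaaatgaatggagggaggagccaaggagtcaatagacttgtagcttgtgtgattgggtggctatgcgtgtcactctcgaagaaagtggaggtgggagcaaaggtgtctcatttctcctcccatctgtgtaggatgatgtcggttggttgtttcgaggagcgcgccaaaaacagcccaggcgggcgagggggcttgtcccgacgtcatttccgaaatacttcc

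Capitals mark the searched motifs, other than the general E-box CANNTG, on either strand. In Cox8b they mark CAGCTG, an E-box form that the muscle factors MyoD and myogenin prefer, beginning 19 bases before the start. In Cox6a1 they mark the palindromic motif of the factor NRF1, 162 bases before the start, and on the other strand CCGGAAG, a site form of ETS factors such as GABPA, 16 bases before it. Of the 80 members, 66 had promoter windows in the table (71 windows). CAGCTG was in 8.45% of member windows and in 13% of all 32851 windows, and CANNTG, which covers CAGCTG, in 59.2% and 66.2%. The NRF1 motif was in 5.63% of member windows (Atp5g2, Atp5k, Cox6a1 and Ndufa11) and in 0.782% of all. CCGGAAG was in 16.9% of member windows, among them those of Cox6b1, Ndufs3, Sdhd, Uqcr11, Uqcrh and Atp5e, and in 6.91% of all. AAGATGGCG, a YY1 form, was in 1.41% of member windows and 0.606% of all. AAGGTCA, bound by estrogen-related receptors, was in 5.63% and 4.08%, and the motif of MEF2 factors in 1.41% and 3.2%. Such a match describes letters and not a site in use, and no match says only that the letters are not in the window.

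Of the other complex IV genes, several rose to a similar extent in both lines. In MuSK-null and wild-type myotubes Cox6b1, the ubiquitous form of subunit 6b, rose by 0.55 and 0.46, Cox7b by 0.44 and 0.42, and Cox6c by 0.30 and 0.28. Cox7a2l, which the letter rule includes although its product joins complexes III and IV into supercomplexes, rose by 0.37 and 0.39. Its second probe set gave 0.16 (adjusted p = 0.254) and 0.00 (adjusted p = 0.984), so the probe sets of this gene disagreed. Cox4i1, the ubiquitous form of subunit 4, changed by 0.31 in each line without passing the threshold (SE 0.13, adjusted p = 0.0545 in the null line and 0.05 in wild type). Without the 4 arrays that deviated together its changes were 0.44 and 0.35 and were called (adjusted p = 0.000482 and 0.00322). It was also called without MuSK-null myoblast replicate 2 alone (0.00813) or wild-type myotube replicate 2 alone (0.0258).

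The forms known from lung and testis were dim and did not share a pattern. Cox4i2 changed by 0.09 in the null line and -0.18 in wild type, and Cox8c by -0.21 and 0.00, none of them called. Cox7b2 fell by 0.39 in wild-type myotubes (SE 0.14, adjusted p = 0.0281), where the stages overlapped, and was at 0.03 in the null line (adjusted p = 0.885). Its wild-type call was lost without myoblast replicate 2 or 3 or myotube replicate 2 (adjusted p = 0.102 to 0.165), and without the 4 arrays that deviated together (0.125). Cox6b2 gave 6.38, 6.76 and 6.80 in MuSK-null myotubes against 6.76, 6.97 and 6.97 in MuSK-null myoblasts, and 7.25, 7.51 and 7.52 in wild-type myotubes against 6.93, 7.15 and 7.04 in wild-type myoblasts. It rose by 0.39 in wild type (SE 0.12, adjusted p = 0.00799), and its change of -0.25 in the null line was not called (adjusted p = 0.088). It was called without MuSK-null myotube replicate 3 (adjusted p = 0.0452) and with each array centred on its median (-0.29, adjusted p = 0.0437).

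In complex I, the entry point for NADH, 32 of 33 genes rose in MuSK-null myotubes (median 0.57) and 26 of 33 in wild-type myotubes (median 0.41), and none fell in either line. Ndufs6 was called in neither line. It gave 9.74, 9.65 and 9.64 in MuSK-null myotubes against 9.29, 9.96 and 9.35 in MuSK-null myoblasts. Wild-type myotubes gave 9.79, 9.76 and 9.81 against 9.58, 10.25 and 9.57 in wild-type myoblasts. Replicate 2, the highest myoblast array in each line, is among the 4 arrays that deviated together. Ndufa1, Ndufa7, Ndufa9, Ndufb6, Ndufb8 and Ndufc2 were called in the null line alone, which does not show that the lines differed for each of them. Without the 4 arrays 72 of all members rose in wild type, against 63 with them. Which of these complex I genes were then called is not given here. Ndufa2, an accessory subunit, had the highest change in the null line. Its signal was 11.72, 11.67 and 11.61 in MuSK-null myotubes against 10.54, 10.67 and 10.49 in MuSK-null myoblasts, and 11.28, 11.28 and 11.16 in wild-type myotubes against 10.48, 10.52 and 10.44 in wild-type myoblasts. The stages stood clear of each other, and the myoblasts of the lines were close together. The changes were 1.10 (SE 0.06, adjusted p = 8.6e-13) and 0.76 (SE 0.06, adjusted p = 6.06e-10). Ndufs4, an accessory subunit needed for a stable complex, gave 12.85, 12.67 and 12.72 in MuSK-null myotubes against 11.81, 11.81 and 11.70 in MuSK-null myoblasts, and 12.69, 12.42 and 12.57 in wild-type myotubes against 11.78, 11.91 and 11.70 in wild-type myoblasts. All myotube arrays lay above all myoblast arrays, with changes of 0.97 (adjusted p = 4.33e-11) and 0.76 (adjusted p = 2.39e-09).

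Complex II, which links the citric acid cycle to the chain, had all 4 genes higher in MuSK-null myotubes (median 0.58) and 3 of 4 in wild-type myotubes (median 0.33). The iron-sulfur subunit gene Sdhb rose by 0.73 in the null line (SE 0.07, adjusted p = 3.25e-09) and by 0.19 in wild type (SE 0.07, adjusted p = 0.0201). The membrane anchor genes Sdhc and Sdhd rose by 0.48 and 0.68 in the null line and by 0.46 and 0.44 in wild type. Sdha, the flavoprotein, rose by 0.39 in the null line (adjusted p = 0.00341), and its change of 0.22 in wild type was not called (adjusted p = 0.0845).

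All 8 complex III genes were higher in myotubes of both lines, with medians of 0.75 in the null line and 0.46 in wild type. Uqcr11, a small accessory subunit, gave 12.31, 12.21 and 12.12 in MuSK-null myotubes against 11.11, 10.87 and 11.12 in MuSK-null myoblasts, and 12.25, 11.98 and 12.34 in wild-type myotubes against 11.40, 10.74 and 11.17 in wild-type myoblasts. The stages did not overlap, although replicate 2 was the lowest array in 3 of these 4 groups. Uqcr11 rose by 1.18 (SE 0.16, adjusted p = 1.06e-06) and 1.09 (SE 0.16, adjusted p = 3e-06). Uqcrb, which borders the ubiquinone site, rose by 0.81 and 0.49, and Uqcrh, the hinge subunit that helps cytochrome c to dock, by 0.77 and 0.59.

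In complex V 16 of 17 genes rose in MuSK-null myotubes (median 0.47), and in wild-type myotubes 15 rose and 1 fell (median 0.39). Atp5md, which encodes a small subunit tied to dimers of the enzyme, gave 13.03, 13.09 and 12.96 in MuSK-null myotubes against 12.42, 12.03 and 12.27 in MuSK-null myoblasts, and 12.99, 13.17 and 12.91 in wild-type myotubes against 12.32, 11.89 and 12.17 in wild-type myoblasts. Myotubes lay above myoblasts on all arrays, by 0.79 (SE 0.11, adjusted p = 2.76e-06) and 0.89 (SE 0.11, adjusted p = 4.15e-07). Atp5k, the e subunit, rose by 0.79 and 0.47. The genes Atp5g1, Atp5g2 and Atp5g3 encode the same mature c subunit of the rotor ring with different import sequences, and they did not move alike. Atp5g1 rose by 0.49 in the null line and 0.66 in wild type, and Atp5g3 by 0.41 and 0.37. Atp5g2 was at 0.02 in the null line (adjusted p = 0.791) and fell by 0.15 in wild type (SE 0.05, adjusted p = 0.0326). That fall was not called without myoblast replicate 2 or 3 or myotube replicate 2 or 3 (adjusted p = 0.0682 to 0.139), nor without the 4 arrays that deviated together (-0.11, adjusted p = 0.0884) or with each array centred on its median (-0.13, adjusted p = 0.0556).

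**Figure D3:**
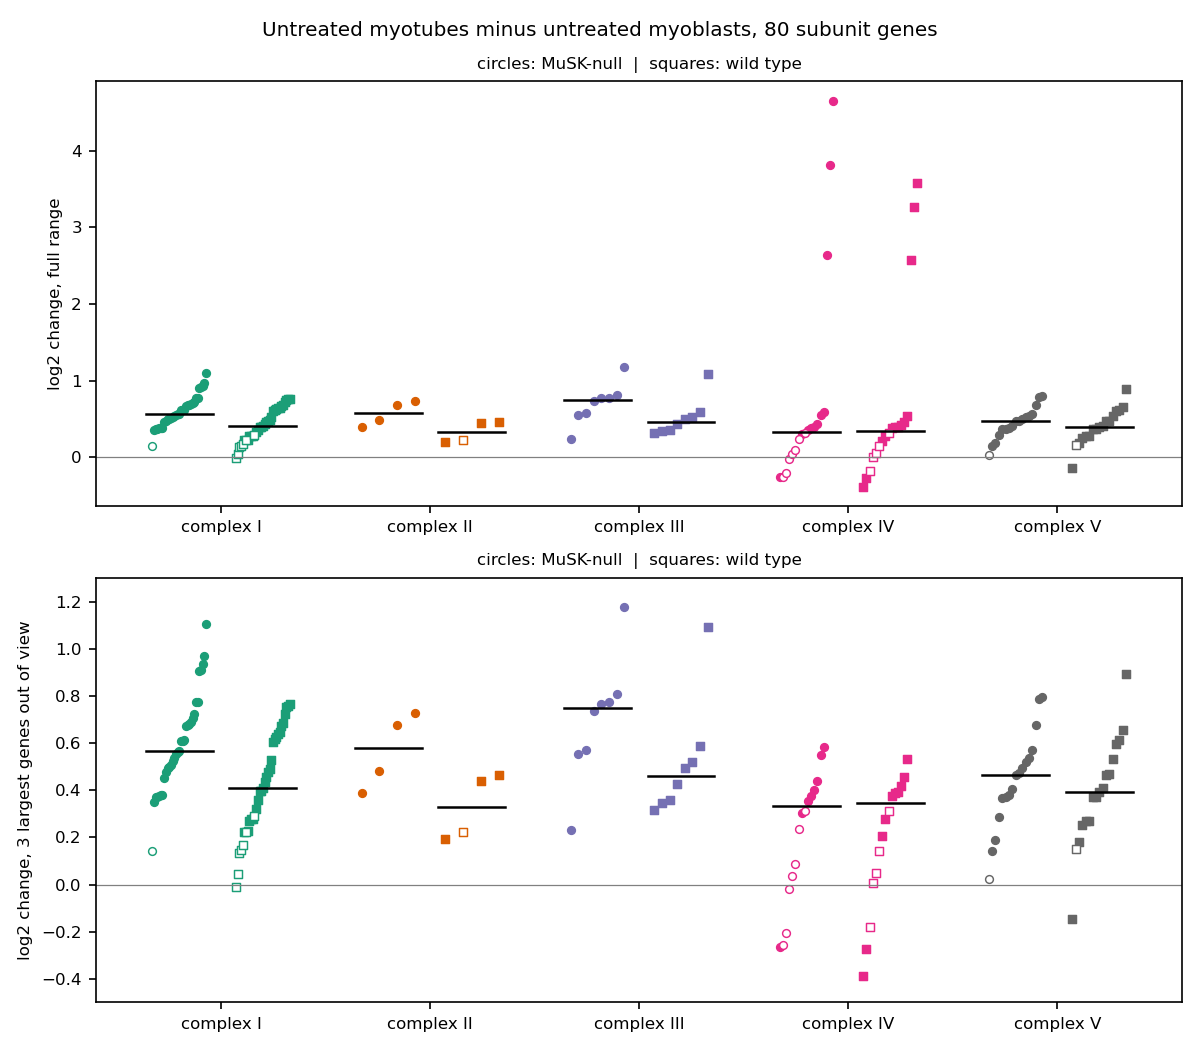
Log2 change of each member in untreated myotubes relative to myoblasts, by complex (circles, MuSK-null; squares, wild type; filled, called; open, not called; bars, medians). The upper panel has the full range, and the lower panel a narrower one that leaves Cox8b, Cox6a2 and Cox7a1 out of view. Nearly all points lie above 0, the highest in complex IV are Cox8b, Cox6a2 and Cox7a1, and the called falls are Cox6a1 in both lines and Cox7b2 and Atp5g2 in wild type.

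Outside Cox6a2, Cox7a1 and Cox8b, 67 of 77 members rose and 1 fell in MuSK-null myotubes (median 0.51), and 60 rose and 3 fell in wild-type myotubes (median 0.39). For the 16 members with more than 1 probe set, the 24 other probe sets gave 21 rises and 0 falls in the null line and 21 rises and 2 falls in wild type, the falls both in Atp5g2.

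Other genes of mitochondrial respiration moved less evenly. Among 41 measured assembly factors of the complexes, 29 rose and 2 fell in MuSK-null myotubes (median 0.39) and 28 rose and 3 fell in wild-type myotubes (median 0.34). Ndufaf4, Uqcc1 and Coa3 rose most in the null line, by 1.10, 1.10 and 1.08, and Cox14, Cox20 and Uqcc1 most in wild type, by 1.04, 0.97 and 0.97. Of 13 citric acid cycle enzymes 8 rose and 1 fell in the null line and 8 rose and 2 fell in wild type. Idh3a, of the NAD-dependent isocitrate dehydrogenase, rose by 1.08 and 0.73, and Idh2, the NADP-dependent form, fell by 0.48 and 1.41. Citrate synthase (Cs) changed by 0.08 (adjusted p = 0.256) and 0.12 (adjusted p = 0.0568). Of 17 genes of fatty acid oxidation 9 rose and 3 fell in the null line and 8 rose and 4 fell in wild type. Acaa2 and Hadhb, of the last steps of the cycle, rose by 1.42 and 0.70 in the null line and by 0.78 and 0.89 in wild type, and Cpt1a, the non-muscle form of the carnitine transferase, fell by 1.02 and 0.63.

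Among 27 genes of electron carriers and energy shuttles, 12 rose and 1 fell in MuSK-null myotubes and 15 rose and 2 fell in wild-type myotubes. Cytochrome c (Cycs) rose by 0.75 (adjusted p = 3.05e-07) and 0.46 (adjusted p = 0.000215). Ckm, the muscle creatine kinase and one of the 10 muscle markers, rose by 4.19 and 2.85, and Ckmt2, its mitochondrial partner, by 1.503 and 2.748. Of 4 measured genes for chain subunits or their partners that the letter rule misses, 2 rose and 1 fell in the null line and 3 rose and 1 fell in wild type. Cyc1 and Atpif1 are among the 27 genes above as well. Ndufab1, the acyl carrier protein in complex I, rose by 0.71 and 0.45, and Atpif1, the inhibitor of ATP synthase, fell by 0.53 and 0.25.

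Regulators of mitochondrial biogenesis were mixed. Of 21 measured, 11 rose and 2 fell in MuSK-null myotubes (median 0.20) and 8 rose and 4 fell in wild-type myotubes (median 0.02). Ppargc1a, the coactivator, rose by 3.13 (adjusted p = 9.64e-15) and 2.75 (adjusted p = 9.79e-14), and its relative Ppargc1b by 1.18 (adjusted p = 1.85e-11) and 0.55 (adjusted p = 4.22e-06). Esrra, a nuclear receptor that works with them, rose by 0.31 and 0.42. Nrf1, a factor that binds many chain promoters, fell by 0.37 (adjusted p = 1.14e-05) and 0.64 (adjusted p = 2.1e-09). Tfam, which packs and transcribes mitochondrial DNA, was not called, at 0.05 (adjusted p = 0.741) and -0.24 (adjusted p = 0.0565).

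Between the untreated lines, MuSK-null myotubes had higher signals than wild-type myotubes for many complex I genes and lower signals for the muscle isoforms of complex IV. In MuSK-null myotubes 28 of the 80 members had higher and 8 had lower signals, where 37.4% of all genes were called (19.4% higher, 18% lower). The median was 0.12, against 0.04 for all genes. In complex I 19 genes were higher and 1 lower (median 0.19), in complex II 1 was higher, in complex III 3 were higher, in complex IV 2 were higher and 6 lower, and in complex V 3 were higher and 1 lower. Beside these differences in MuSK-null myotubes, 7 of the 10 muscle markers were lower (median -0.25). Of 8 fibroblast markers 6 were higher and 1 lower (median 1.35), and of 15 cell cycle genes 10 were higher and 1 lower (median 0.54). The part of these markers in the results was not tested.

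Among the complex I genes, Ndufa12, an accessory subunit, gave 9.97, 9.95 and 10.05 in MuSK-null myotubes against 9.41, 9.47 and 9.56 in wild-type myotubes, without overlap (difference 0.51, SE 0.11, adjusted p = 0.00057). Ndufa9, an accessory subunit near the ubiquinone site, was higher by 0.48 (SE 0.10, adjusted p = 0.000347), and Ndufb5 and Ndufa6 by 0.46 and 0.45. Ndufs5 was the exception. It gave 9.45, 9.56 and 9.47 in MuSK-null myotubes against 9.89, 9.90 and 10.00 in wild-type myotubes, and was lower by a log2 difference of -0.43 (SE 0.09, adjusted p = 0.000272). In the other complexes Uqcrfs1, the Rieske iron-sulfur protein of complex III, was higher by 0.37 (SE 0.08, adjusted p = 0.00048), Sdhb by 0.30 (SE 0.07, adjusted p = 0.000802) and Uqcrq by 0.24 (SE 0.06, adjusted p = 0.00411).

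Of complex IV, Cox7a1 was lower in MuSK-null myotubes by a log2 difference of -1.002 (SE 0.11, adjusted p = 1.77e-07), Cox6b2 by -0.78 (SE 0.12, adjusted p = 8.28e-06), Cox8b by -0.40 (SE 0.11, adjusted p = 0.00603) and Cox6a2 by -0.25 (SE 0.07, adjusted p = 0.00637). The arrays printed above for these 4 genes did not overlap between the myotubes of the lines. Cox5a and Cox5b, ubiquitous subunits, were lower by -0.25 and -0.19. Cox7a2l and Cox8a were higher by 0.29 and 0.16. The Cox7a2l value rests on 1 of 2 probe sets that disagreed for stage, and the value of the other is not given here. The Cox8a call was lost without wild-type myotube replicate 3 (adjusted p = 0.117) or MuSK-null myotube replicate 1 or 2 (0.0813 and 0.0652). Cox7b2, at 0.31, was called only without MuSK-null myotube replicate 3 (adjusted p = 0.0475, against 0.0885 on all arrays).

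The c subunit genes of complex V split between the lines in myotubes. Atp5g2 gave 13.37, 13.39 and 13.31 in MuSK-null myotubes against 13.06, 13.03 and 13.02 in wild-type myotubes (difference 0.32, SE 0.05, adjusted p = 4.84e-05). Atp5g1 gave 13.39, 13.42 and 13.37 in MuSK-null myotubes against 13.68, 13.68 and 13.70 in wild-type myotubes (-0.29, SE 0.07, adjusted p = 0.00123). Neither gene overlapped between the lines, and Atp5g3 was at 0.13 (adjusted p = 0.145). Atp5e, the epsilon subunit, and Atp5c1, the gamma subunit, were higher by 0.33 (SE 0.10, adjusted p = 0.0133) and 0.32 (SE 0.12, adjusted p = 0.0457). The Atp5c1 call was lost without any 1 of the 6 myotube arrays (adjusted p = 0.0548 to 0.113), and the Atp5e call without wild-type replicate 2 (0.0521) or MuSK-null replicate 1 or 2 (0.0559 and 0.0543).

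**Figure D4:**
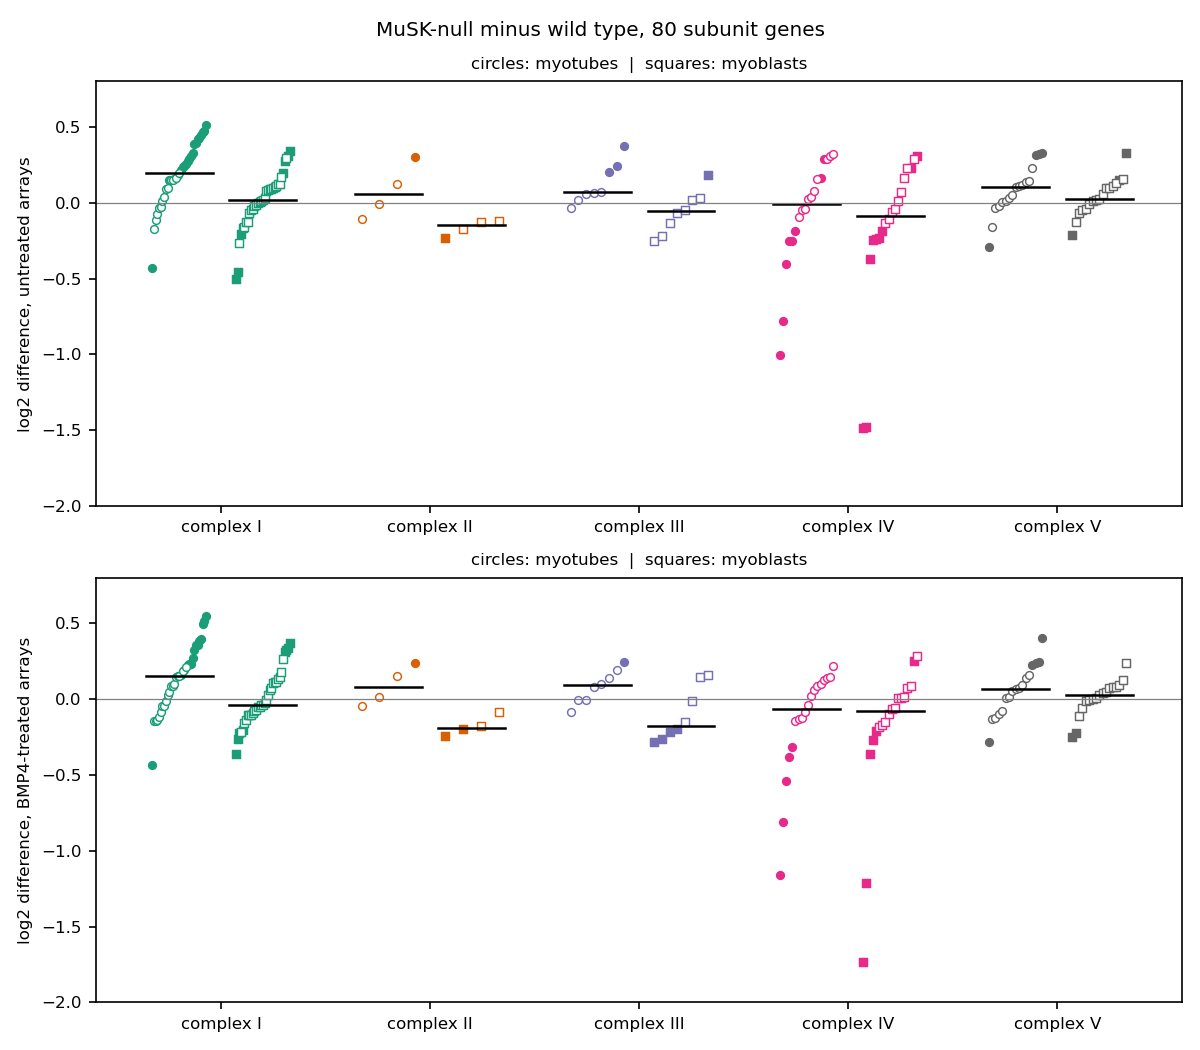
Log2 difference of each member in the MuSK-null line relative to wild type, by complex, on untreated arrays (upper panel) and BMP4-treated arrays (lower panel) (circles, myotubes; squares, myoblasts; filled, called; open, not called; bars, medians). In the upper panel complex I points in myotubes lie mostly above 0 (median 0.19), and Cox6a2 and Cox8b in myoblasts and Cox7a1 in myotubes lie lowest.

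In untreated myoblasts the largest differences between the lines were those of the muscle isoforms Cox6a2 and Cox8b. Of the members 9 were higher and 12 lower in MuSK-null myoblasts, where 31.3% of all genes were called (15.3% higher, 16% lower), and both medians were near 0 (0.00 for members, -0.01 for all genes). This split depended on the scaling, with 15 higher and 7 lower when each array was centred on its median and 7 and 16 after quantile normalization. Without the 4 arrays that deviated together 6 were higher and 11 lower. Cox6a2 was lower by a log2 difference of -1.49 (SE 0.07, adjusted p = 4.68e-14) and Cox8b by -1.48 (SE 0.11, adjusted p = 2.63e-10). Cox7a1 was lower by -0.37 (SE 0.11, adjusted p = 0.0145), and this call was lost without wild-type myoblast replicate 2 (0.0775) or MuSK-null myoblast replicate 1 (0.0517). All 10 muscle markers were lower in the same comparison (median -2.40), and so were 3 of 5 smooth muscle markers (median -0.31). Of 8 fibroblast markers 6 were higher and 1 lower (median 0.78), and of 15 cell cycle genes 8 were lower and 1 was higher. Their part in the isoform differences was not tested.

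In complex I Ndufs5 gave 8.79, 8.78 and 8.89 in MuSK-null myoblasts against 9.42, 9.37 and 9.18 in wild-type myoblasts (difference -0.50, SE 0.09, adjusted p = 6.4e-05), lower without overlap as in myotubes. Ndufb5 was higher by 0.31 (SE 0.07, adjusted p = 0.000848). Ndufa12 was higher by 0.34 (adjusted p = 0.0193), a call lost without replicate 2 or 3 of wild-type or replicate 1 or 2 of MuSK-null myoblasts (adjusted p = 0.0532 to 0.0882) and without the 4 arrays that deviated together (0.0783). Ndufb6 was lower by -0.45 (adjusted p = 0.00539), a call lost without wild-type replicate 2 (0.0593) or MuSK-null replicate 3 (0.0516). Cox7a2l, Cox8a, Cox5a and Cox5b were called as in myotubes, at 0.31, 0.23, -0.23 and -0.24, with Cox7a2l again from 1 probe set. Sdhb was lower by -0.23 (adjusted p = 0.00946), and without the 4 arrays that deviated together its adjusted p was 0.0586.

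Several other calls between the myoblasts of the lines were close to the threshold and were lost when 1 array was left out. Cox4i2 (-0.25) was lost without wild-type replicate 2 or any 1 MuSK-null array (adjusted p = 0.0528 to 0.162), and Cox6b1 (-0.19) without wild-type replicate 1 or 2 or MuSK-null replicate 1 or 3 (0.0531 to 0.15). Uqcrc1, a core subunit of complex III (0.18), was lost without wild-type replicate 1 or 3 or MuSK-null replicate 1 or 2 (0.067 to 0.135). Atp5e (0.33) was lost without wild-type replicate 2 (0.103) or MuSK-null replicate 2 (0.059). Atp5g2 (0.15) was lost without wild-type replicate 1 or 3 or any 1 MuSK-null array (0.0519 to 0.176), and Atp5k (-0.22) without any 1 wild-type array or MuSK-null replicate 1 or 2 (0.0549 to 0.189). Without the 4 arrays that deviated together the adjusted p-values were 0.284 for Cox4i2, 0.131 for Cox6b1, 0.197 for Atp5e and 0.0535 for Atp5g2. With each array centred on its median they were 0.11 for Cox4i2, 0.16 for Cox6b1 and 0.169 for Atp5k. Across the stages 14 members differed between the lines in the same direction in myotubes and in myoblasts (8 higher, 6 lower), which is 38.9% of the myotube calls and 66.7% of the myoblast calls. How many of all genes did so was not counted. Sdhb and Ndufa6 were called in opposite directions at the 2 stages. For Sdhb the myoblast call was lost without the 4 arrays that deviated together, as given above. Ndufa6 gave 10.48, 10.43 and 10.50 in MuSK-null myoblasts against 10.59, 10.86 and 10.58 in wild-type myoblasts. The 10.86 is from 1 of those 4 arrays, and the Ndufa6 call without them is not given here.

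The stage change itself was tested for a difference between the lines on untreated arrays. For 13 members the change in the MuSK-null line was above that in wild type and for 2 below it, where 29.1% of all genes were called (14.9% above, 14.1% below), and the median was 0.13 for members and 0.04 for all genes. The muscle isoforms differed in both directions. The change was larger in the null line for Cox6a2 by 1.24 (SE 0.10, adjusted p = 1.23e-09) and for Cox8b by 1.07 (SE 0.16, adjusted p = 1.19e-05), and smaller for Cox7a1 by a difference of -0.63 (SE 0.16, adjusted p = 0.00424). All 10 muscle markers had a larger change in the null line too (median difference 2.12). Of 5 smooth muscle markers 3 lay above their wild-type change (median 0.43), and of 15 cell cycle genes 14 lay above and 1 below (median 0.83). Of 8 fibroblast markers 4 lay above and 3 below (median 0.21). The part of these markers in the differences was not tested.

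The differing members outside complex IV were all steeper in the null line. Ndufa6, an accessory subunit of complex I, gave 11.49, 11.35 and 11.37 in MuSK-null myotubes against 10.48, 10.43 and 10.50 in MuSK-null myoblasts, and 10.91, 10.95 and 10.99 in wild-type myotubes against 10.59, 10.86 and 10.58 in wild-type myoblasts. The null arrays held both the highest and the lowest values, and the difference of changes was 0.66 (SE 0.10, adjusted p = 2.91e-05). Sdhb gave 11.89, 11.88 and 11.78 in MuSK-null myotubes against 11.14, 11.15 and 11.09 in MuSK-null myoblasts, and 11.64, 11.44 and 11.56 in wild-type myotubes against 11.30, 11.40 and 11.36 in wild-type myoblasts. Its order was the same, with a difference of changes of 0.53 (SE 0.09, adjusted p = 0.000112). Uqcrfs1 gave 10.04, 10.10 and 9.94 in MuSK-null myotubes against 9.22, 9.41 and 9.24 in MuSK-null myoblasts, and 9.69, 9.66 and 9.60 in wild-type myotubes against 9.29, 9.44 and 9.27 in wild-type myoblasts. Here the myoblasts of the lines overlapped, and the difference of changes was 0.42 (SE 0.11, adjusted p = 0.00534).

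Among the genes that accompany the chain, calls between the lines were about as frequent as, or rarer than, over all genes for regulators and assembly factors. In myotubes 9 of 21 regulators and 10 of 41 assembly factors were called, against 37.4% of all genes, and in myoblasts 8 of 21 and 9 of 41, against 31.3% of all genes. MuSK-null myotubes had higher signals for 9 of 13 citric acid cycle enzymes and a lower one for 1, with Idh2 at 0.95 and Suclg2 at 0.64. Of the regulators 7 were higher and 2 lower, among them Ppara at 0.76, Ppargc1b at 0.39 (adjusted p = 0.000373) and Nrf1 at 0.30 (adjusted p = 0.000194), with the nuclear receptors Esrrb and Esrrg at -1.15 and -0.41. Ckmt2 and Ckm were lower, at -1.303 and -0.59, and Slc25a4, the adenine nucleotide carrier of muscle, was higher at 0.59. Assembly factors split evenly, with 5 higher and 5 lower, and of the fatty acid oxidation genes 6 were higher and 2 lower. In myoblasts 2 regulators were higher and 6 lower, with Ppargc1a at -0.44 (adjusted p = 0.0177) and Ppargc1b at -0.24 (adjusted p = 0.0243), and 2 assembly factors were higher and 7 lower, with Ndufaf4 at -0.85 and Sco1 at -0.69.

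Almost no chain subunit gene was called as changed by BMP4 at 8 h. In myotubes 0 members were called in either line. Among all genes 11.3% were called in MuSK-null myotubes (5.36% higher, 5.9% lower) and 8.77% in wild-type myotubes (4.4% higher, 4.37% lower). An unadjusted p under 0.05 was reached by 3 and 1 members. Without the 4 arrays that deviated together Ndufv3, a small subunit of complex I, was called in MuSK-null myotubes (adjusted p = 0.0202, against 0.0676 on all arrays). In myoblasts 1 member was called in each line, where 8.42% of all genes were called in MuSK-null myoblasts (3.89% higher, 4.52% lower) and 11% in wild-type myoblasts (5.21% higher, 5.76% lower). The changes ran from -0.19 to 0.22 in MuSK-null myotubes, from -0.16 to 0.32 in wild-type myotubes, from -0.56 to 0.13 in MuSK-null myoblasts and from -0.36 to 0.14 in wild-type myoblasts. In the null line 62 of 80 members were below 0 in myotubes (median -0.03) and 62 in myoblasts (median -0.04). In wild type 36 were below 0 in myotubes (median 0.01) and 53 in myoblasts (median -0.02). Of all 19938 genes 10791 and 8875 were below 0 in MuSK-null myotubes and myoblasts, and 8473 and 10013 in wild-type ones.

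The members called in myoblasts were muscle isoforms of complex IV, and both fell. Cox8b gave 7.51, 7.32 and 7.63 in treated MuSK-null myoblasts against 8.04, 8.02 and 8.09 in untreated ones, without overlap, and fell by 0.56 (SE 0.11, adjusted p = 0.00132). With BMP4 wild-type myoblasts gave 9.38, 9.38 and 8.91 for Cox8b against 9.68, 9.36 and 9.55 without BMP4, which overlapped (-0.31, SE 0.11, adjusted p = 0.0947). This change was called without untreated wild-type myoblast replicate 2 (adjusted p = 0.0427). Cox6a2 gave 9.34, 9.20 and 9.07 in treated wild-type myoblasts against 9.51, 9.59 and 9.58 in untreated ones, without overlap, and fell by 0.36 (SE 0.07, adjusted p = 0.000726). In MuSK-null myoblasts it gave 7.99, 8.01 and 7.96 with BMP4 against 7.90, 8.18 and 8.15 without, which overlapped (-0.09, adjusted p = 0.597). Treated myoblasts had also been deprived of serum, which cannot be told apart from BMP4 here. The mean of the muscle markers was 8.65 to 8.73 in treated MuSK-null myoblasts, against 8.85 to 9.00 in untreated ones, and 11.12 to 11.15 in treated wild-type myoblasts, against 11.36 to 11.49 in untreated ones. Of the 10 muscle markers 5 were called lower in MuSK-null and 4 in wild-type myoblasts, and 0 higher in either. Of 6 myoblast markers 4 were lower and 0 higher in MuSK-null myoblasts (median -0.54). In wild-type myoblasts 4 were lower and 1 higher (median -0.29). The part of these markers in the falls was not tested.

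**Figure D5:**
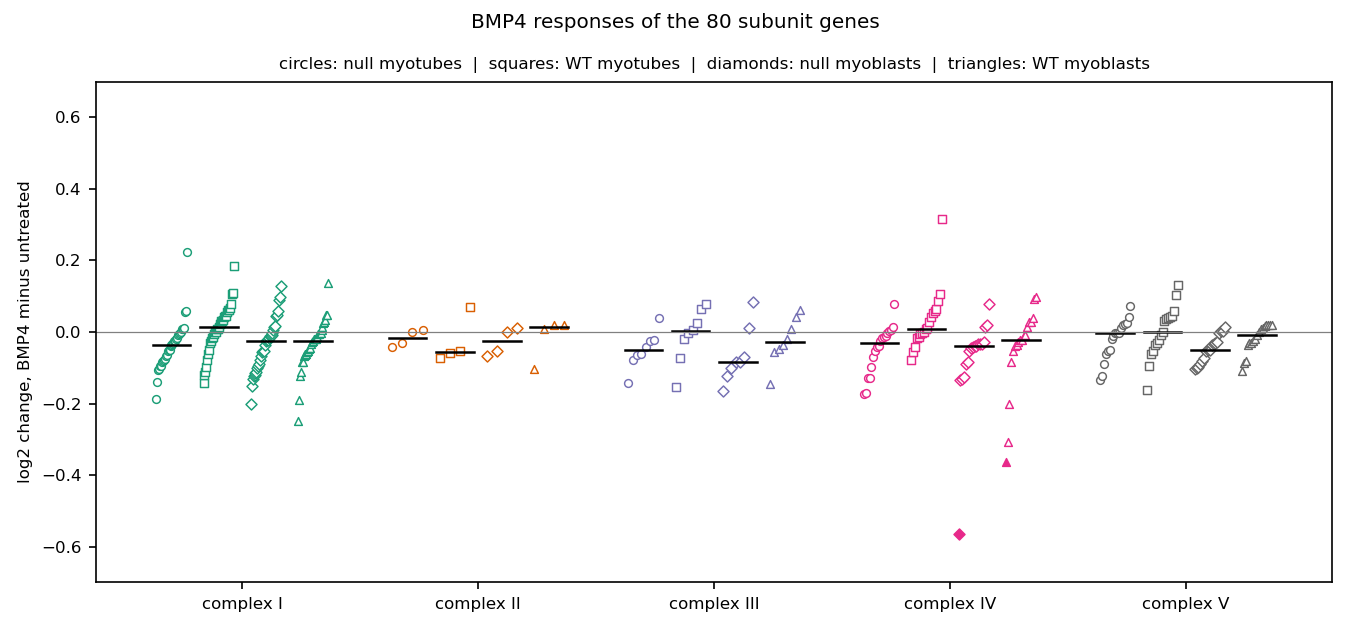
Log2 change of each member with BMP4 (25 ng/ml, 8 h) in the 4 kinds of culture, by complex (circles, MuSK-null myotubes; squares, wild-type myotubes; diamonds, MuSK-null myoblasts; triangles, wild-type myoblasts; filled, called; open, not called). Points stay close to 0, and the called ones are Cox8b in MuSK-null myoblasts and Cox6a2 in wild-type myoblasts.

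The response to BMP4 was not called as different between the lines for any member. In myotubes 0 of 80 were called, with 3.21% of all genes called (1.5% higher, 1.71% lower) and 4 members at an unadjusted p under 0.05, and in myoblasts 0 of 80, with 2.39% of all genes called (1.17% higher, 1.22% lower) and 2 members at an unadjusted p under 0.05. The difference of responses in myoblasts was 0.27 for Cox6a2 (adjusted p = 0.228) and -0.26 for Cox8b (adjusted p = 0.66). Of 21 regulators of mitochondrial biogenesis, 0 were called higher with BMP4 in any comparison. In the null line 3 were lower in myotubes and 3 in myoblasts, where 11.3% and 8.42% of all genes were called. In wild type 2 and 2 were lower, where 8.77% and 11% of all genes were called. Coactivator genes were among them. Changes of Ppargc1a in myoblasts and of Ppargc1b in myotubes are not given here. Ppargc1a fell by 0.56 with BMP4 in MuSK-null myotubes (adjusted p = 0.00823) and by 0.91 in wild-type myotubes (adjusted p = 8.36e-05). Ppargc1b fell by 0.31 in MuSK-null myoblasts (adjusted p = 0.0127) and, with an adjusted p of 5.15e-07, by 0.73 in the wild-type ones.

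The arrays of treated cultures, which share no array with the untreated ones, gave much the same picture of stage and line. Myotubes had 70 members higher and 0 lower in the null line (median 0.54) and 63 higher and 1 lower in wild type (median 0.43). Among all genes 42.4% were called in the null line (17.7% higher, 24.7% lower) and 44.1% in wild type (20.8% higher, 23.3% lower). Of the member calls 70 in the null line and 60 in wild type were shared in direction with the untreated arrays. Such shared calls were not counted over all genes. Cox8b rose by 5.15 in the null line and 3.95 in wild type, Cox6a2 by 3.73 and 2.90, Cox7a1 by 2.49 and 3.29, Uqcr11 by 1.133 and 1.298, and Ndufa2 by 1.12 and 0.87. Cox6a1 fell by 0.30 in wild type (adjusted p = 0.00977), a call lost without treated wild-type myotube replicate 3 (0.0518). Without treated wild-type myoblast replicate 3 its change was -0.16 (adjusted p = 0.12), and without all 4 arrays that deviated together -0.16 (adjusted p = 0.0687). Its change of -0.22 in the null line was not called (adjusted p = 0.0577).

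Between the treated lines MuSK-null myotubes had 20 members higher and 7 lower (median 0.09). Among all genes 36.3% were called (17.5% higher, 18.8% lower). Of these member calls 25 were shared in direction with the untreated arrays. Shared calls between the lines were not counted over all genes at either stage. Cox7a1 was lower by -1.16, Cox6b2 by -0.81, Ndufs5 by -0.44 and Atp5g1 by -0.28, and Ndufa12 and Ndufb10 were higher by 0.55 and 0.52. In treated MuSK-null myoblasts 5 were higher and 17 lower (median -0.04), of which 11 were shared, and 29.7% of all genes were called (14.1% higher, 15.6% lower). When each array was centred on its median this split was 11 higher and 7 lower. Cox8b was lower by -1.74 and Cox6a2 by -1.21, and Ndufb10 was higher by 0.34 (adjusted p = 0.000822).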

How the data were processed

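RNA of 24 mouse muscle cell samples in 8 groups of 3 was measured on Affymetrix whole-transcript arrays. The values deposited by the authors are on a log2 scale, 1 per probe set and array, read from their range of 2.50 to 15.03. The submitters' processing notes list Partek and Affymetrix Expression Console but say neither what each did nor which version. The sources used here do not give the background correction or normalization.

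Of 35556 rows, 21789 list 1 gene, 1621 several and 12146 none. The last 2 kinds were left out of tests, including 6 rows in which a member shares its probes with a near-identical copy. The row with the highest mean was kept per gene (19938 genes). Of the one-gene rows 21698, and of the members 80 of 80, matched a RefSeq gene ID (GRCm38.p6).

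A model with 1 mean per group was fitted with limma 3.58.1 in R 4.3.3 (16 residual degrees of freedom, Benjamini-Hochberg over all genes). In simulated data 200 of 19938 genes were changed. For the wild-type stage comparison the model recovered 36% of genes changed by 0.3 log2 units and 94% at 0.6. For the difference between lines in stage change the shares were 6% and 54%. Many more genes were called in the deposited data, where the adjustment is thus less strict, so these shares need not hold there. Arrays give no counts, and their number limits the precision.

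Members, gene lists and tests were chosen with earlier results of these data known. Named genes are the isoform families of complexes IV and V, the 2 largest called rises and falls per complex and comparison, up to 10 called members per BMP4 comparison and up to 3 called genes per list and direction. Several of the last are left unnamed. Same-numbered arrays of MuSK-null myoblasts (both treatments) and untreated wild-type myoblasts deviated together (correlations of 0.12 to 0.51 within each number). The labels give no shared batch, and this cannot be told apart from the 4 myoblast arrays that deviated together. Alternatives are listed in the closing section. The fits without those 4 arrays, or with them as a block, were chosen after seeing the data.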

Additional observations from a re-analysis of the deposited data

Results flagged for a closer look

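For 15 members the change from myoblasts to myotubes differed between the untreated lines by the test of that difference itself (limma, Benjamini-Hochberg over all genes, MuSK-null change minus wild-type change). This was 18.8% of the members, against 29.1% of all genes. The change was larger in the null line for Cox6a2 (1.24), Cox8b (1.07), Ndufa6 (0.66), Sdhb (0.53), Uqcrfs1 (0.42), Ndufa2 (0.35) and Uqcr10 (0.34), and smaller for Cox7a1 (-0.63) and Cox6b2 (-0.64). These 9 stayed called when any 1 of the 12 arrays was left out, with adjusted p-values up to 0.0391.

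The other 6, all with a larger change in the null line, were Ndufa9 (0.38), Atp5k (0.33), Ndufb8 (0.32), Ndufc2 (0.32), Ndufb3 (0.31) and Ndufv1 (0.29). Their adjusted p-values were 0.0188 to 0.0468 on all arrays. With each array centred on its median, Ndufa9 (0.0793), Atp5k (0.087), Ndufb8 (0.0693), Ndufb3 (0.11) and Ndufv1 (0.0876) lost their calls, and 8 members were above and 2 below, against 13 and 2 in the values as deposited. Ndufc2 lost its call without wild-type myoblast replicate 2 (0.0553) or MuSK-null myoblast replicate 3 (0.0506). In the list that follows, arrays are given by group and replicate number. Ndufa9 lost its call without any 1 of MuSK-null myotubes 1 or 2, MuSK-null myoblasts 1 or 3, wild-type myotubes 1, 2 or 3, or wild-type myoblast 2 (0.052 to 0.121). Ndufb3 lost it without MuSK-null myotubes 1 or 3, MuSK-null myoblasts 1 or 3, wild-type myotubes 1, 2 or 3, or wild-type myoblasts 1 or 3 (0.059 to 0.148). Atp5k lost it without MuSK-null myotubes 1 or 2, MuSK-null myoblast 1, wild-type myotubes 1 or 3, or wild-type myoblasts 1 or 3 (0.0546 to 0.102). Ndufb8 lost it without MuSK-null myotubes 1 or 2, MuSK-null myoblasts 1 or 3, wild-type myotubes 1 or 3, or wild-type myoblast 1 (0.0599 to 0.0881). Ndufv1 lost it without MuSK-null myotubes 1 or 2, MuSK-null myoblasts 1 or 3, wild-type myotube 2, or wild-type myoblast 2 (0.0571 to 0.102).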

How the results depend on the processing

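No named member that was called changed direction under any alternative run. Of 133 calls on named members, 100 kept their side of the threshold when any 1 array was left out. With a fold change of at least 1.5 asked for as well, the members called fell to 29 (null) and 20 (wild type) for stage, 5 for the difference between lines in stage change, 2 in myotubes and 2 in myoblasts between lines, and 0 in both BMP4 myoblast comparisons. On treated arrays they fell to 34 and 21 for stage and 2 and 2 between lines. With only the compared groups in the fit, the myoblasts of the lines gave 13 (12 on treated arrays). With the 4 arrays that deviated together as a block, the difference in stage change gave 27, the myoblasts of the lines 33, and BMP4 gave 2 in each kind of myoblast and 1 in MuSK-null myotubes. The cause of these gains was not tested. Quantile normalization gave 2 for BMP4 in wild-type myoblasts (Cox6a2 and Cox8b). BMP4 in MuSK-null myotubes gave 1 with trend and robust moderation, without dim genes, with median centring and without the 4 arrays, each time Ndufv3, which was named after its values were seen (0.22, adjusted p = 0.0676 on all arrays).

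Leaving out 1 array gave 66 to 71 members for stage in the null line, 59 to 66 in wild type, 10 to 16 for the difference in stage change, 27 to 34 between lines in myotubes and 13 to 18 in myoblasts (14 to 18 on treated arrays). The 13 came without MuSK-null replicate 1 or wild-type replicate 2, and the 14 without MuSK-null replicate 3. For BMP4 it gave 1 to 2 in wild-type myoblasts and 0 to 1 in MuSK-null myotubes, the higher counts without untreated replicate 2 of that culture. With the replicate number as a block the counts were 71 and 66 for stage, 16 for the difference in stage change, and 38 in myotubes and 22 in myoblasts between lines. Among the named calls the block ended that of Atp5k between myoblasts (adjusted p = 0.052). Median centring ended 15 named calls, the fit with only the compared groups 18, leaving out the 4 arrays 14 and quantile normalization 3.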
